A study of Rattus norvegicus with 2 samples.

Results

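The laminin chains, nidogens and perlecan of the basement membrane were followed gene by gene through the cell classes of the rat carotid artery, in an uninjured and a balloon-injured library. 9 genes were named for this: the laminin α chains Lama2, Lama4 and Lama5, the β chains Lamb1 and Lamb2, the γ chain Lamc1, the nidogens Nid1 and Nid2, and Hspg2, which encodes perlecan. 8 of the 9 are listed by symbol among the 32623 genes of the count matrix. Hspg2 is not listed, but RefSeq gives AABR07073181.1 (ENSRNOG00000021437) as a synonym of Hspg2, and the values of that entry are given separately and are not counted among the 8. The control library was made from whole left carotid arteries and the case library from whole right carotid arteries taken 28 days after balloon injury, each pooled from 2 Sprague-Dawley rats that were 8 weeks old at injury and are labelled as 12 weeks old. The control and injured vessels are the 2 sides of the same rats. Besides pentobarbital for surgery and sacrifice, no transgene, deletion or drug is named for either group. On the injured side the balloon entered through a cut in the external carotid branch, which was then ligated. With 1 library a group there is no replicate check and no test between conditions. Intervals in the text are exact 95% intervals that cover the counting of UMIs (unique molecular identifiers, 1 per captured RNA molecule) and nothing else.

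Basement membranes are thin sheets of matrix that underlie the endothelium and wrap single smooth muscle cells, Schwann cells and muscle fibres. A laminin is a trimer of an α, a β and a γ chain, secreted whole. The α chain carries the main sites for integrins and dystroglycan, so the choice of α chain sets much of what a cell can bind. Lama2 is the α chain of the merosin laminins of muscle and peripheral nerve, and Lama4 and Lama5 are those of the vessel wall. Nidogens link the laminin sheet to the collagen IV sheet, and perlecan, a heparan sulfate proteoglycan, joins this scaffold and holds growth factors there.

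The sequences ahead of the α chain genes are shown because the results on cell classes turn on which α chain a class holds. They are the 250 bases before the annotated start in RefSeq (build GRCr8, which is not the build the reads were counted on), written 5′ to 3′ on the gene's strand. Capitals mark matches, on either strand, to the GC box GGGCGG, the TATA box TATAAA or the CArG box, the binding motif of serum response factor. Lama2 lies at chr1:19491896-19492145 on the plus strand, Lama4 at chr20:43946648-43946897 on the plus strand and Lama5 at chr3:187695975-187696224 on the minus strand.
Lama2: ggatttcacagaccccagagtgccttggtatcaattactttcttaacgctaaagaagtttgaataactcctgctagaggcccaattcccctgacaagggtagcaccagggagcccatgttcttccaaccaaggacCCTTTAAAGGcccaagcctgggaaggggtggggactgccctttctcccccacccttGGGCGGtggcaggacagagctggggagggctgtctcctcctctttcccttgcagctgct
Lama4: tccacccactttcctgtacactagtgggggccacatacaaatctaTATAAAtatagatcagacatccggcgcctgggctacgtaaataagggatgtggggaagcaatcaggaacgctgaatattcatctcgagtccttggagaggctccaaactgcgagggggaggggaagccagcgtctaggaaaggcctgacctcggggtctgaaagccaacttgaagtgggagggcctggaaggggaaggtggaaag
Lama5: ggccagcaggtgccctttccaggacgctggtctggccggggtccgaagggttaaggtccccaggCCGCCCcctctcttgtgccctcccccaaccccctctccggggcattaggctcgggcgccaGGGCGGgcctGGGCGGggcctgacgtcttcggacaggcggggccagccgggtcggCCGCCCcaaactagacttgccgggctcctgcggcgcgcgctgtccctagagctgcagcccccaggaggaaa
The Lama5 window held 4 GC boxes and was 72.8% G or C, against 55.6% for Lama2 and 53.2% for Lama4. Of the 33469 promoter windows of this length in the table, 30.5% held a GC box, 12.9% held TATAAA and 1.5% held a CArG box. The CArG match stood in the Lama2 window, the TATAAA match in the Lama4 window, and none of either in the Lama5 window. Such a match describes the letters of the window and is not evidence of a site in use. 7 of the 9 genes had an entry in the table.

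The control library held 3321 cell barcodes and 24968329 UMIs, and the case library 5656 barcodes and 28232614 UMIs. After filtering, 2742 control and 4930 case barcodes were kept, with a median of 8880.0 and 5156 UMIs. The 2 libraries share 21 barcode sequences. Cells were gated into classes by the summed UMIs of fixed marker genes, none of them a member. The vascular smooth muscle cell (VSMC) class held 1097 control and 2518 case cells, and the fibroblast class 720 and 1437. The endothelial class held 57 and 257 cells, the macrophage class 38 and 95, and the Schwann class 21 and 60. A further 92 and 84 cells carried both VSMC and fibroblast markers. Of the gate markers, Acta2, the smooth muscle actin, stood at 1758 UMIs per 1000000 (CPM) in control VSMCs and 49.7 in control fibroblasts. Dcn, the fibroblast proteoglycan decorin, stood at 203 and 14842. Both genes are part of the gates, so these levels describe the gating and do not check the labels. The median UMIs of a control VSMC (12246) and of a case VSMC (5490.0) differed by more than a factor of 2, so levels are given as CPM over the summed UMIs of a class. Because 3′ counts capture different genes with different efficiency, levels are compared between cells for a given gene, and not between genes.

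Lama2, the α chain of merosin, was highest in fibroblasts and Schwann cells. Its level in fibroblasts was 171 CPM (163 to 181) in the control and 144 CPM (136 to 153) in the case library, and in VSMCs it was 17.1 and 13.8 CPM. Fibroblasts thus stood 10.0-fold (8.69 to 11.6) above VSMCs in the control and 10.5-fold (9.0 to 12.2) in the case library. Schwann cells carried 221 CPM (139 to 335) and 108 CPM (65.2 to 169), a level that did not differ from that of fibroblasts beyond counting error in either library. No Lama2 UMI was found in macrophages of either library, where a count of 0 allows up to 12.2 and 7.31 CPM. In endothelial cells 0 and 4 UMIs were found, and a count of 0 among the control cells allows up to 8.44 CPM. The Lama2 level of VSMCs lies above these limits. VSMCs also held the 10 fibroblast markers at a summed 3787 CPM in the control and 3264 CPM in the case library, with Dcn at 203 and 192 CPM. The 10 include the collagens Col1a1 and Col3a1, which were kept out of the gate because VSMCs carry them too. Their sum is therefore not a measure of fibroblast RNA. The part of fibroblast RNA in the Lama2 UMIs of VSMCs was not tested.

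Lama5 had the reverse order between VSMCs and fibroblasts. This chain, known from the laminins under endothelium and in mature arterial muscle, stood at 52.3 CPM (48.4 to 56.4) in control VSMCs and 44.9 CPM (41.5 to 48.5) in case VSMCs. Fibroblasts carried 2.66 and 3.92 CPM, so that VSMCs were 19.7-fold higher in the control and 11.5-fold higher in the case library. Endothelial cells held 22.9 CPM (11.0 to 42.1) and 33.6 CPM (23.9 to 45.9). VSMCs stood above them 2.28-fold (1.23 to 4.78) in the control and 1.34-fold (0.966 to 1.9), which includes an equal level, in the case library. Endothelial cells were 8.61-fold (3.64 to 18.9) and 8.58-fold (5.21 to 14.2) above fibroblasts. Fibroblasts also held Acta2 at 49.7 CPM in the control and 36.8 CPM in the case library, and the part of smooth muscle RNA in the few Lama5 UMIs of fibroblasts was not tested. In Schwann cells Lama5 had 0 and 2 UMIs.

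Lama4, the α chain of endothelial and muscle basement membranes, was the most evenly spread α chain. It stood at 60.0 and 60.8 CPM in VSMCs, at 34.0 and 53.7 CPM in fibroblasts, at 22.9 and 28.4 CPM in endothelial cells and at 60.3 and 85.5 CPM in Schwann cells. VSMCs exceeded endothelial cells 2.62-fold (1.42 to 5.49) in the control and 2.14-fold (1.51 to 3.13) in the case library. The Schwann cell values rest on 6 and 15 UMIs, and their intervals include the VSMC level. Macrophages had 1 Lama4 UMI in each library.

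**Figure D1:**
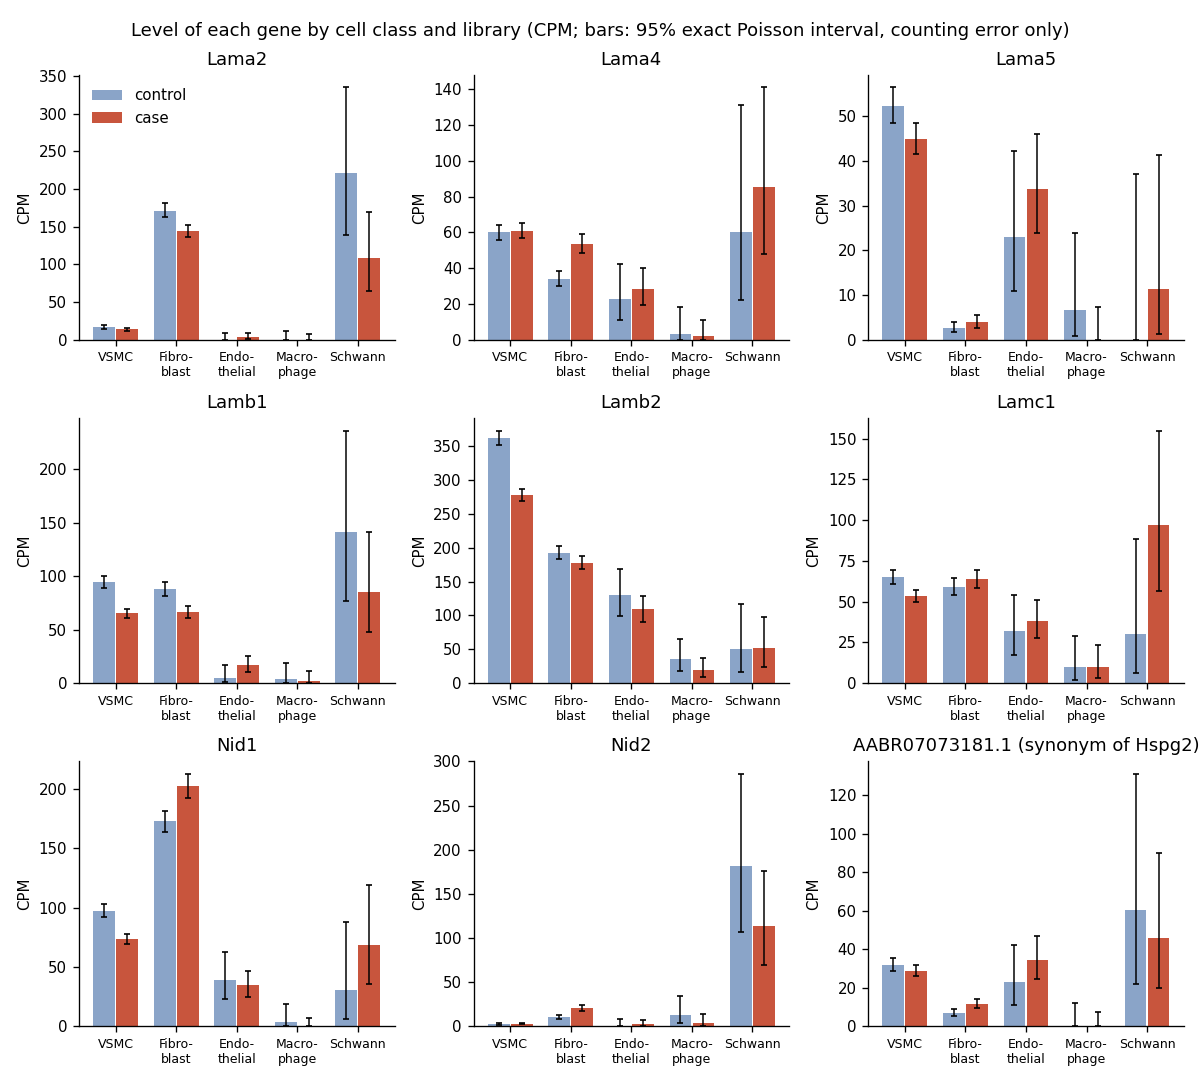
Level of each gene in CPM (vertical axis, from 0) in the cell classes (horizontal axis) of the control (blue) and case (red) library, with 95% exact Poisson intervals as error bars. Lama2 is highest in fibroblasts and Schwann cells (171 and 221 CPM in the control), Lama5 in VSMCs (52.3 CPM) and Nid2 in Schwann cells (181 CPM), while the 8 members sum to 75.8 CPM in control macrophages.

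Of the β chains, Lamb2, the chain of mature vascular and synaptic laminins, was highest in VSMCs at 362 CPM (352 to 373) and 278 CPM (269 to 286). Fibroblasts followed with 192 and 178 CPM, endothelial cells with 130 and 109 CPM, and Schwann cells with 50.3 and 51.3 CPM. Lamb1, the β chain of the early embryonic laminins, did not separate VSMCs from fibroblasts, with 94.5 against 88.0 CPM in the control and 65.0 against 66.1 CPM in the case library. The ratio of fibroblasts to VSMCs was 0.932 (0.849 to 1.02) in the control and 1.02 (0.913 to 1.13) in the case library. Lamb1 was scarce in endothelial cells, with 2 UMIs in the control (4.58 CPM) and 19 in the case library (16.4 CPM), and VSMCs stood 3.97-fold (2.53 to 6.62) higher in the case library. In Schwann cells it reached 141 and 85.5 CPM.

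Lamc1, the γ chain shared by all the laminins these genes can form, was at similar levels in VSMCs and fibroblasts of the control, and somewhat higher in fibroblasts of the case library. VSMCs held 65.1 and 53.4 CPM and fibroblasts 59.0 and 63.6 CPM, with a fibroblast to VSMC ratio of 0.907 (0.809 to 1.01) in the control and 1.19 (1.06 to 1.33) in the case library. Endothelial cells held 32.0 and 37.9 CPM, and macrophages 9.88 and 9.90 CPM on 3 and 5 UMIs.

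Nid1, the major nidogen, was higher in fibroblasts, at 173 CPM (164 to 182) and 203 CPM (193 to 213), than in VSMCs, at 97.2 CPM (91.9 to 103) and 73.5 CPM (69.2 to 78.1). The ratio was 1.78 (1.65 to 1.92) in the control and 2.76 (2.55 to 2.98) in the case library. Endothelial cells held 38.9 and 34.5 CPM. Nid2, its paralog, was highest in Schwann cells, at 181 CPM (107 to 286) and 114 CPM (69.6 to 176), against 2.31 and 2.97 CPM in VSMCs and 10.5 and 20.4 CPM in fibroblasts. Schwann cells were 78.2-fold (41.1 to 145) above VSMCs in the control and 38.4-fold (21.4 to 66.7) in the case library, on 18 and 20 Schwann cell UMIs from 10 of 21 and 17 of 60 cells. In these Schwann cells 7 of 10 fibroblast markers had a UMI in each library, with a summed level of 2061 and 4885 CPM, against 56621 and 46136 CPM in fibroblasts. The 10 include Col1a1 and Col3a1, which are not particular to fibroblasts. The part of RNA from other cells in the Nid2 UMIs of Schwann cells was not tested.

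The entry AABR07073181.1, the synonym of Hspg2, was higher in VSMCs than in fibroblasts, at 31.9 and 28.9 CPM against 6.77 and 11.5 CPM, a ratio of 4.72 in the control and 2.51 in the case library. Endothelial cells held 22.9 CPM (11.0 to 42.1) and 34.5 CPM (24.6 to 46.9), which did not differ from VSMCs beyond counting error. Schwann cells held 60.3 and 45.6 CPM on 6 and 8 UMIs, and macrophages none.

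Among all genes with at least 20 UMIs over the pair of classes, fibroblasts stood at 2-fold or more the level of VSMCs for 14.0% in the control and 13.7% in the case library. Of the 8 members, Lama2 and Nid2 did so in the control, and Lama2, Nid1 and Nid2 in the case library. The reverse, VSMCs at 2-fold or more, held for 23.6% and 21.3% of genes and for Lama5 alone of the members in both libraries. Endothelial cells were low in most members. VSMCs stood at 2-fold or more above them for 7 of 8 members in the control and 5 of 8 in the case library, against 19.9% and 20.4% of all genes. For Lama2 in the control the ratio was 2.49 with the 0 endothelial UMIs set to a floor of 3. That floor is 6.87 CPM, while a count of 0 allows up to 8.44 CPM, so 2.49 is not a bound. The shares over all genes set a count of 0 below this floor. The summed level of the 8 members was 751 CPM (736 to 766) in control VSMCs, 731 CPM (712 to 749) in control fibroblasts, 714 CPM (558 to 901) in control Schwann cells, 252 CPM (207 to 303) in control endothelial cells and 75.8 CPM (48.0 to 114) in control macrophages. The cells with both VSMC and fibroblast markers held 697 and 634 CPM in sum. Their Lama2 level (63.1 and 69.6 CPM) and Lama5 level (36.9 and 33.5 CPM) lay between those of VSMCs and fibroblasts, and whether these barcodes hold 1 cell or 2 was not tested.

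The makeup of each chain family within a class restates the same UMIs with the family as the total in place of all genes. It is thus not separate support for the levels. Of the α chain UMIs of control VSMCs, 13.2% were Lama2, 46.4% Lama4 and 40.4% Lama5. In control fibroblasts 82.4% (80.5 to 84.2) were Lama2, 16.3% Lama4 and 1.28% Lama5. In case endothelial cells 5.26% were Lama2, 43.4% Lama4 and 51.3% Lama5, on 76 UMIs. Lamb1 made up 20.7% of β chain UMIs in control VSMCs, 31.4% in control fibroblasts, 3.39% in control endothelial cells and 73.7% (48.8 to 90.9) in control Schwann cells, the highest share of these 4 classes. Of these 4 classes, Nid2 likewise had its highest share in Schwann cells, at 85.7% (63.7 to 97.0) of nidogen UMIs in the control and 62.5% (43.7 to 78.9) in the case library. The share was 2.33% to 9.12% in VSMCs and fibroblasts. Macrophages, outside these 4, had 4 Nid2 UMIs among 5 nidogen UMIs in the control and 2 of 2 in the case library, too few to rank. Since capture differs by gene, these shares order the classes and do not give the proportion of protein chains.

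**Figure D2:**
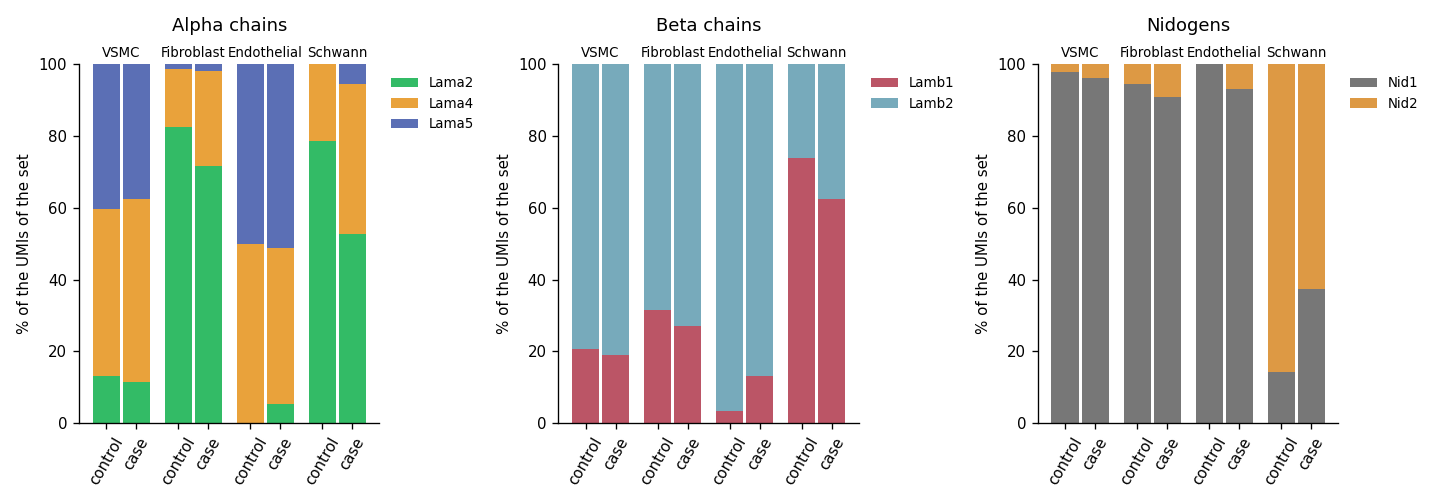
Share of the UMIs (vertical axis, %) of the α chains, the β chains and the nidogens that each gene contributed in VSMCs, fibroblasts, endothelial cells and Schwann cells of the control and case library. Lama2 fills most of the fibroblast bar (82.4% in the control, 71.5% in the case library) and little of the VSMC bar (13.2% and 11.6%), and the Nid2 share is highest in Schwann cells (85.7% and 62.5%).

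To ask what differed 28 days after injury, the case library was set against the control within each class. In VSMCs Lamb1, Lamb2, Lamc1 and Nid1 were lower in the injured artery with CPM and with the scaling factors given below, each by less than 1.5-fold. With means over cells Lamb1 passed 1.5-fold (-0.61), and with each cell thinned to 1000 UMIs Nid1 did (-0.60). Lamb1 stood at 94.5 CPM in control and 65.0 CPM in case VSMCs, a log2 difference of -0.54 (-0.66 to -0.42). Lamb2 differed by -0.39 (-0.45 to -0.32), from 362 to 278 CPM, and Nid1 by -0.40 (-0.52 to -0.28), from 97.2 to 73.5 CPM. Lamc1 (-0.29), Lama2 (-0.31) and Lama5 (-0.22) were also lower by more than counting error, while Lama4, at 60.0 and 60.8 CPM, had a log2 difference of 0.02 (-0.12 to 0.16). Nid2 differed by 0.36 (-0.35 to 1.08) on 30 and 43 UMIs.

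Thus 6 of 8 members were lower in case VSMCs beyond counting error and 0 were higher, where 33.2% of the 11682 genes tested were lower and 15.7% higher. None passed a 1.5-fold difference, where 17.5% of genes were 1.5-fold or more lower and 8.16% higher. The median log2 difference of the members was -0.30, against -0.14 over all genes. With factors of the trimmed mean of M values (TMM) between the libraries, which shift every VSMC difference up by 0.14, no member changed direction, but the counts did: 4 of 8 members were lower (Lamb1 at -0.40, Lamb2 at -0.25, Nid1 at -0.27 and Lamc1 at -0.15, -0.29 to -0.01) and Lama4 was higher (0.16, 0.01 to 0.30), while 23.9% of all genes were lower and 23.3% higher. Lama2 (-0.46 to 0.11) and Lama5 (-0.24 to 0.07) then had intervals that span 0. The summed level of the 8 members was 751 CPM in control and 592 CPM (579 to 604) in case VSMCs.

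In fibroblasts the members split by gene. Nid2 was at 10.5 CPM in the control and 20.4 CPM in the case library, a log2 difference of 0.95 (0.57 to 1.35), and Lama4 at 34.0 and 53.7 CPM, a difference of 0.66 (0.44 to 0.88). These 2 passed 1.5-fold, as did 9.59% of the 10842 genes tested in that direction. Nid1 was higher by 0.23 (0.13 to 0.33), at 173 and 203 CPM. Lamb1 was lower by more than counting error, at -0.41 (-0.58 to -0.25), as were Lama2, at -0.25 (-0.36 to -0.13), and Lamb2, at -0.11 (-0.22 to -0.01). Lamc1 (0.11) and Lama5 (0.56, on 22 and 31 UMIs) had intervals that span 0.

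The count was thus 3 of 8 members higher and 3 lower beyond counting error in fibroblasts, against 16.1% and 26.1% of all genes, with a median log2 difference of 0.17 against -0.09 over all genes. With TMM factors, 4 were higher, Lamc1 now among them (0.19, 0.01 to 0.38), and 2 lower, against 20.8% and 21.2% of all genes, and Lamb2 (-0.13 to 0.08) spans 0. These shares over all genes were likewise not matched to the members for UMIs. The summed level of the members was the same within counting error, at 731 and 733 CPM (714 to 752). The α chain makeup differed: Lama2 went from 82.4% (80.5 to 84.2) to 71.5% (69.2 to 73.7) of α chain UMIs and Lama4 from 16.3% (14.6 to 18.2) to 26.6% (24.4 to 28.8). AABR07073181.1 was higher in case fibroblasts by 0.76 (0.27 to 1.27), on 56 and 91 UMIs, and in VSMCs it differed by -0.15 (-0.35 to 0.05). Nid1 therefore had opposite signs in VSMCs (-0.40) and fibroblasts (0.23), each beyond counting error, a difference between classes that no replicate tests.

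**Figure D3:**
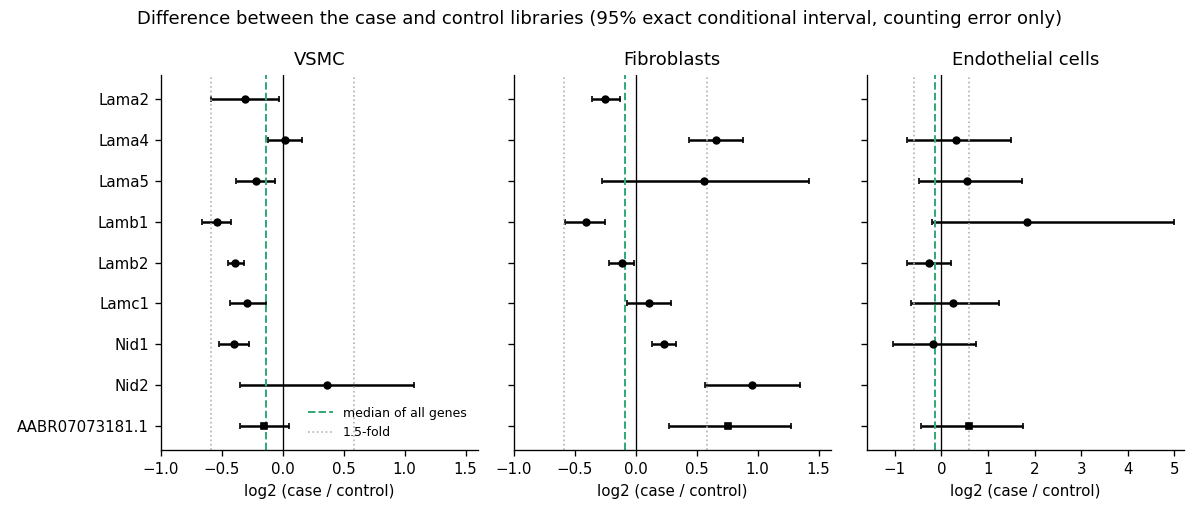
Log2 ratio of the case to the control library (horizontal axis) for each gene in VSMCs, fibroblasts and endothelial cells, with 95% exact conditional intervals, and a square for the synonym of Hspg2. The dashed line is the median over all genes of the class, and dotted lines mark 1.5-fold. VSMC members lie mostly left of 0, down to -0.54 for Lamb1, and in fibroblasts Nid2 (0.95) and Lama4 (0.66) lie past the right dotted line.

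Depth limited the smaller classes. In endothelial cells 6 of 8 members had the 20 UMIs needed over both libraries, and none differed beyond counting error, where 13.6% of genes were higher and 21.2% lower. Lamb1 passed 1.5-fold, as did 20.2% of genes in that direction, with a log2 difference of 1.84 (-0.21 to 4.98). Under other processing this Lamb1 difference ranged from -0.06, with Leiden clusters in place of gates, to 2.19, with means over cells. Lama4, Lama5, Lamb2, Lamc1 and Nid1 differed by between -0.27 and 0.55, with intervals that leave room for a difference of more than 1.5-fold either way for Lama4, Lamc1 and Nid1. In Schwann cells Lama2 was lower by -1.03 (-2.00 to -0.08), on 22 and 19 UMIs, 1 of 5 members tested, where 13.9% of genes were lower and 15.1% higher. Past 1.5-fold were Lamc1, higher as were 29.5% of genes, and Lama2, Lamb1 and Nid2, lower as were 22.0% of genes. In the cells with both marker sets 7 members were tested and all 7 intervals span 0, where 8.21% of genes were higher and 16.4% lower, and none passed 1.5-fold, where 11.7% were higher and 22.3% lower. These cells had a median of 2398 UMIs in the control and 9169.5 in the case library. In Leiden clusters 31.8% of them kept this class, and the 1 cluster so named held 70 control cells and 1 case cell. Whether this gate holds the same kind of cell in both libraries was not tested. In macrophages Lamb2 alone was tested, at -0.87 (-2.26 to 0.5), past 1.5-fold lower as were 16.2% of genes.

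Nid1 varied within fibroblasts more than between the 2 libraries. Fibroblasts were gated by single genes into cells positive for Pi16 (a marker of adventitial progenitor-like fibroblasts), cells high in Gfpt2, cells positive for Postn (periostin, a matrix gene of activated fibroblasts) and the rest. A cell past several limits counted as Gfpt2-high first and then as Postn-positive. The Pi16-positive group thus leaves out cells past either of those limits. Pi16-positive cells held 118 CPM (107 to 130) of Nid1 in the control and 130 CPM (113 to 148) in the case library. Gfpt2-high cells held 213 CPM (197 to 230) and 235 CPM (218 to 253), 1.80-fold (1.59 to 2.05) and 1.81-fold (1.56 to 2.12) above the Pi16-positive cells of the same library. Higher levels of this kind, beyond counting error, were found for 22.2% of all genes in the control and 27.7% in the case library, and lower levels for 29.8% and 22.6%. Lamc1 was also higher in both libraries, by 1.38-fold (1.11 to 1.71) and 1.34-fold (1.04 to 1.73), Nid2 in the case library, by 3.94-fold (2.09 to 8.23), and Lamb1 was lower there, at 0.790-fold (0.635 to 0.986). The remaining fibroblasts held 206 CPM (185 to 229) and 174 CPM (158 to 190) of Nid1, 1.74-fold (1.51 to 2.02) and 1.34-fold (1.14 to 1.58) above Pi16-positive cells. In them Lamc1 was 1.64-fold (1.29 to 2.08) and 1.12-fold (0.857 to 1.46) the Pi16-positive level, and Lamb1 in the case library 0.593-fold (0.464 to 0.757). Higher Nid1 than in Pi16-positive cells was thus not particular to Gfpt2-high cells. No share over all genes was taken for the remaining fibroblasts.

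Postn-positive fibroblasts numbered 90 in the case library and 5 in the control, and held 410 CPM (356 to 470) of Nid1 in the case library, 3.16-fold (2.60 to 3.84) above Pi16-positive cells. Nid2, at 25.8 CPM, was 4.03-fold (1.66 to 9.92) and Lamc1, at 79.3 CPM, 1.5-fold (1.01 to 2.19) above Pi16-positive cells, so that 3 of 8 members were higher beyond counting error, where 12.1% of genes were, and 0 were lower, where 8.58% were. The 5 control cells are too few for levels.

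Inside these groups the difference of Nid1 between the libraries was 0.13 (-0.11 to 0.37) in Pi16-positive and 0.14 (-0.01 to 0.29) in Gfpt2-high cells. Both intervals span 0. In the remaining fibroblasts it was -0.25 (-0.45 to -0.04), beside 0.23 for the class as a whole. Differences inside groups were not repeated with TMM factors, which shift those of the whole fibroblast class up by 0.08. The reading of an upper limit of -0.04 therefore depends on the scaling. The Pi16-positive cells made up 47.4% of control and 23.9% of case fibroblasts, and the Postn-positive cells 0.694% and 6.26%. With Gfpt2-high and Postn-positive cells left out, an alternative chosen after seeing the data, Nid1 differed by 0.09 and Nid2 by 0.55. These values, given without an interval, were the lowest of 12 alternatives for each gene. The highest were 0.39 and 2.17. Nid2 stood at 9.23 CPM (6.18 to 13.3) in control and 25.2 CPM (19.9 to 31.6) in case Gfpt2-high cells, a log2 difference of 1.45 (0.82 to 2.12), at 6.73 and 6.40 CPM in Pi16-positive cells and at 20.1 and 22.8 CPM in the remaining fibroblasts.

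Lama4 was higher in the case library in each of the 3 larger groups, by 0.45 (0.03 to 0.87) in Pi16-positive, 0.64 (0.28 to 0.99) in Gfpt2-high and 0.87 (0.39 to 1.37) in the remaining fibroblasts. Lama2 was lower by -0.63 (-0.84 to -0.42) in the remaining fibroblasts, and differed by -0.11 and -0.13, with intervals that span 0, in the Pi16-positive and Gfpt2-high cells. Lamb1 was lower by -0.83 and -0.46 in the remaining and Gfpt2-high cells and differed by -0.02 (-0.32 to 0.27) in Pi16-positive cells. The median UMIs of Pi16-positive cells were 9434 in the control and 4786 in the case library, and in a cell of few UMIs a single molecule decides a gate, so depth moves with these group sizes and its part was not tested.

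**Figure D4:**
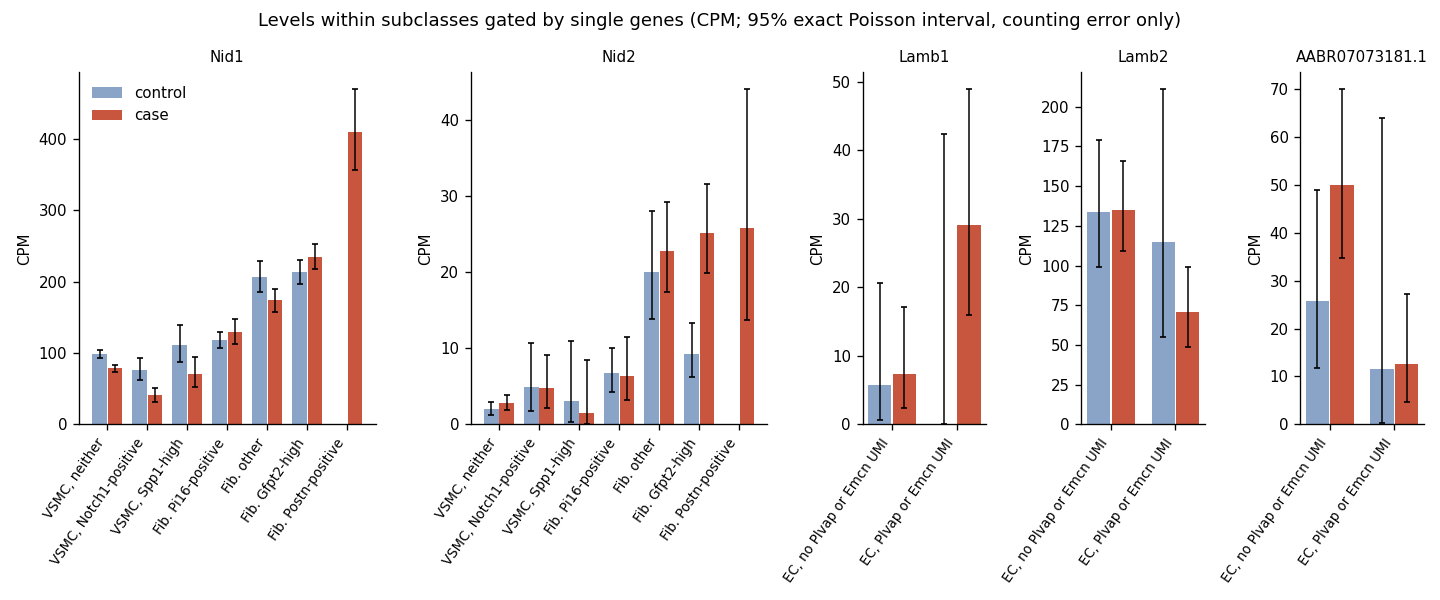
CPM (vertical axis, from 0) of Nid1 and Nid2 in groups of VSMCs and fibroblasts gated by single genes, and of Lamb1, Lamb2 and the synonym of Hspg2 in endothelial cells (EC) with and without a Plvap or Emcn UMI, control in blue and case in red, with 95% exact Poisson intervals (Postn-positive control fibroblasts, 5 cells, are left out). Nid1 climbs from 130 CPM in Pi16-positive to 410 CPM in Postn-positive case fibroblasts.

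Among VSMCs, cells with Notch1, a receptor of vessel wall patterning, had the lowest Nid1. Notch1-positive VSMCs held 76.5 CPM (61.7 to 93.7) in the control and 40.6 CPM (32.0 to 50.8) in the case library, 0.776-fold (0.621 to 0.959) and 0.515-fold (0.403 to 0.652) the level of VSMCs low in both Notch1 and Spp1. Lower levels of this kind were found for 10.0% of genes in the control and 10.2% in the case library, and higher levels for 15.2% and 16.2%. Lama5 was 1.46-fold (1.15 to 1.84) higher in the control and 0.952-fold (0.743 to 1.21) in the case library, and the intervals of the other members include an equal level in both. Notch1-positive VSMCs had a median of 13908 UMIs in the control and 4839.5 in the case library. VSMCs low in both genes had 12179 and 5559.5. In a cell of few UMIs a single Notch1 molecule passes the limit, so the gate selects differently in the 2 libraries. The part of depth in these Nid1 levels was not tested. VSMCs high in Spp1, the osteopontin gene of synthetic smooth muscle, had more Lama5 and Lamc1 in the control, by 1.49-fold (1.09 to 2.01) and 1.5-fold (1.14 to 1.95), where 6.05% of genes were higher and 3.87% lower. In the case library the ratios of these 2 genes were 1.11 (0.759 to 1.58) and 1.08 (0.756 to 1.5), and Lama2 was 1.93-fold (1.09 to 3.18) higher, where 5.44% of genes were higher and 3.01% lower.

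Endothelial cells with a UMI of Plvap or Emcn, genes of capillary and venous endothelium, numbered 12 in the control and 110 in the case library, 21.1% and 42.8% of the class. In the case library Lamb1 stood at 29.1 CPM (15.9 to 48.9) in these cells and 7.36 CPM (2.39 to 17.2) in the others, 3.96-fold (1.35 to 14.0) higher, where 23.3% of genes were higher. Lamb2 had the reverse order, at 70.7 CPM (49.0 to 98.8) against 135 CPM (109 to 166), and so had AABR07073181.1, at 12.5 CPM (4.58 to 27.2) against 50.0 CPM (34.6 to 69.9), where 17.7% of genes were lower. Lamb1 made up 29.2% (17.0 to 44.1) of β chain UMIs in endothelial cells with Plvap or Emcn and 5.15% (1.69 to 11.6) in the others. In the control, where 14.9% of genes were higher and 12.8% lower, no member with a ratio differed beyond counting error. In the cells without these genes, Lamb1 had 2 UMIs in the control and 5 in the case library, a log2 difference of 0.36 (-2.25 to 3.76). The 12 control cells with Plvap or Emcn had 0 Lamb1 UMIs, which their depth leaves compatible with up to 42.3 CPM, so a difference in the share of these cells and one inside them cannot be told apart.

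The partners of these proteins were read from lists in the same way, on CPM alone. Their counts were not repeated with TMM factors, which shift log2 differences up by 0.14 in VSMCs and endothelial cells and by 0.08 in fibroblasts. Nor were the shares over all genes matched to the list genes for UMIs. Of the collagen IV genes, which form the second network of the basement membrane, 5 of 6 tested were lower in case VSMCs beyond counting error and 0 higher, with a median log2 difference of -0.53, where 33.2% of all genes were lower and 15.7% higher. Col4a6 was at 54.5 and 23.5 CPM (-1.21, -1.40 to -1.02) and Col4a2 at 44.3 and 19.7 CPM (-1.17, -1.38 to -0.96), while Col4a1, at 404 and 305 CPM, differed by -0.40. Col4a5, counted among the lower, was at 1282 and 1213 CPM (-0.08, -0.11 to -0.05). That is a smaller difference than the all-gene median of -0.14, and its sign depends on the scaling. In fibroblasts 3 of 6 were lower and 1 higher, where 26.1% and 16.1% of all genes were: Col4a1 stood at 240 and 337 CPM (0.49, 0.40 to 0.57) and Col4a4 at 139 and 95.6 CPM (-0.54, -0.68 to -0.41).

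Of 12 other basement membrane components tested in VSMCs, 6 were lower and 1 higher, with a median of -0.31, against the same 33.2% and 15.7% of all genes. Sparc, a collagen-binding glycoprotein, was at 5205 and 3118 CPM (-0.74), Col18a1 at 1518 and 1252 CPM (-0.28) and Col15a1 at 578 and 435 CPM (-0.41). The 1 higher was Fbln2, a nidogen- and laminin-binding fibulin, at 2.08 and 6.42 CPM (1.62, 0.99 to 2.30), on 27 and 93 UMIs. The part of fibroblast RNA in the few Fbln2 UMIs of VSMCs was not tested. In fibroblasts 5 of 12 were lower and 2 higher, against 26.1% and 16.1%. Smoc2 was at 120 and 233 CPM (0.96, 0.85 to 1.07) and Fbln2 at 513 and 758 CPM (0.57, 0.51 to 0.62), and Sparc at 10046 and 5501 CPM (-0.87).

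Of 14 laminin and perlecan receptors and their linkers tested in VSMCs, 6 were lower and 1 higher, with a median of -0.08, near the 33.2% of all genes lower and below the 15.7% higher. The lower ones included Bcam, a receptor of Lama5 laminins, at 463 and 324 CPM (-0.52), Itgb1, the β1 integrin, at 1394 and 1065 CPM (-0.39), Dmd, dystrophin, at 351 and 249 CPM (-0.50), and Sspn, sarcospan, at 197 and 115 CPM (-0.78). Itga7, the muscle laminin integrin, at 130 and 127 CPM, and Utrn, utrophin, at 172 and 174 CPM, differed by -0.03 and 0.02. Beside a TMM shift of 0.14, the reading of differences this small depends on the scaling. The same holds for Dag1 (-0.11, -0.21 to -0.01), which is counted among the lower. In fibroblasts 3 of 14 receptors were lower and 2 higher, near the 26.1% and 16.1% of all genes, among the higher Itgb1 at 472 and 523 CPM (0.15).

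Heparan sulfate genes, which build and trim the chains of perlecan, had 3 of 10 higher and 1 lower in both VSMCs and fibroblasts, where 15.7% and 16.1% of all genes were higher and 33.2% and 26.1% lower. Ext1, the chain polymerase, was at 138 and 189 CPM (0.46, 0.37 to 0.54) in VSMCs and 90.3 and 122 CPM (0.44, 0.30 to 0.58) in fibroblasts. Sulf2, an extracellular 6-O-sulfatase, was at 44.7 and 63.4 CPM (0.50, 0.35 to 0.66) in VSMCs, and its paralog Sulf1 at 42.8 and 32.9 CPM (-0.38). Of 6 basement membrane proteases, 2 were higher and 1 lower in VSMCs, against 15.7% and 33.2% of all genes. Adamts1 was at 240 and 309 CPM (0.37, 0.30 to 0.43), Adamts4 at 11.3 and 19.2 CPM (0.77, 0.48 to 1.07) and Mmp2 at 261 and 221 CPM (-0.24). The part of fibroblast RNA in the Adamts4 UMIs of VSMCs was not tested. In fibroblasts 2 were higher and 3 lower, against 16.1% and 26.1%, Mmp14 at 173 and 224 CPM (0.37) and Adamts4 at 838 and 711 CPM (-0.24).

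In endothelial cells 1 of 4 collagen IV genes tested was higher and 2 lower beyond counting error, where 13.6% and 21.2% of all genes were. Col4a1 was at 192 and 314 CPM (0.71, 0.36 to 1.07), Col4a4 at 101 and 39.6 CPM (-1.35, -1.97 to -0.72) and Col4a5 at 325 and 231 CPM (-0.49, -0.79 to -0.19). Of 8 other components tested, 2 were higher and 3 lower, against the same 13.6% and 21.2%. Col18a1 was at 142 and 288 CPM (1.02, 0.63 to 1.44) and Col15a1 at 22.9 and 62.9 CPM (1.46, 0.50 to 2.58), on 10 and 73 UMIs. Among the lower, Sparc was at 3569 and 1615 CPM (-1.14) and Tinagl1, a laminin-binding matrix protein, at 266 and 122 CPM (-1.12).

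**Figure D5:**
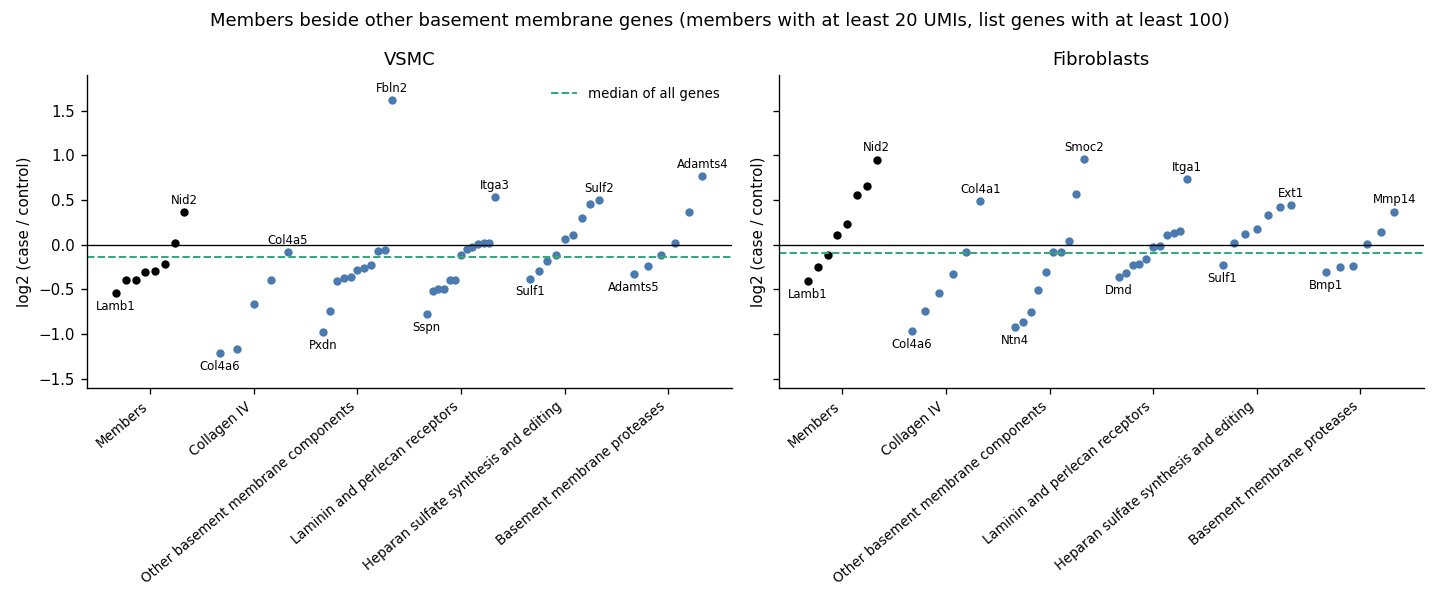
Log2 ratio of the case to the control library (vertical axis) for the members and for the genes of 5 lists (horizontal axis) in VSMCs and fibroblasts. Points are genes, sorted within a list, with the lowest and highest named, and the dashed line is the median over all genes. The collagen IV list reaches -1.21 in VSMCs, below the lowest member, Lamb1 at -0.54.

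The genes whose pattern over classes was most like that of an α chain were read from the 12 sums of class by library, as the correlation of log2(CPM + 10) among 5102 genes. These points share libraries and depth, and the values are a description. Lama2 was closest to Ntrk2 (r = 0.970), Abca8a (0.967) and Dclk1 (0.959). Lama4 was closest to Col4a1 (0.963), Cnn3 (0.956) and AABR07072236.1 (0.955), and Lama5 to Pdlim3 (0.960), Ctdsp1 (0.951) and Actn4 (0.942).

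A UMI of an α chain, a β chain and Lamc1 together was found in 36.4% (33.5 to 39.3) of control and 11.6% (10.4 to 13.0) of case VSMCs, and in 32.4% and 13.2% of fibroblasts, shares that move with the depth of the cells. For Lama2 a UMI was found in 71.7% of control and 48.9% of case fibroblasts, at a median of 11308 and 5154 UMIs. Thinned to 1000 UMIs a cell, the shares were 15.3% and 13.3%, and in VSMCs, where 15.9% and 7.03% had a UMI, they were 1.71% and 1.49%. In macrophages 0 of 38 and 0 of 95 cells had one. Thinned in the same way, Nid1 was found in 9.13% of control and 6.70% of case VSMCs and in 13.4% and 16.0% of fibroblasts, in the same order as the CPM.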

How the data were processed

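Single-cell 3′ RNA libraries were made on the 10x Genomics platform, and the authors counted UMIs with Cell Ranger 3.1.0 on Rnor_6.0, per the labels. The deposited values are raw UMI counts per gene and barcode, both libraries in 1 matrix. The barcode suffix with 5656 barcodes was taken as the case library and that with 3321 as the control, by the barcode numbers of the study. The members and lists were chosen with earlier results of these data known, and the gate limits after the marker distributions were seen.

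Barcodes over 20% mitochondrial UMIs, beyond 2 SD of log10 UMIs or genes, or beyond 3 robust SD of their regression were left out. Kept barcodes of at least 1000 UMIs were gated per 10000 UMIs: VSMC markers at least 75 with fibroblast markers under 30; 8 fibroblast markers at least 50 with VSMC markers under 50; endothelial at least 10, macrophage at least 20 and Schwann at least 10 with the others low. Ungated were 716 control (26.1%) and 472 case barcodes (9.57%), and 1 and 7 T cells are not described. Doublets were not removed except by the gates. Subclass limits per 10000 UMIs were 10 for Spp1, 2 for Notch1, 20 for Gfpt2 and 5 for Postn and Pi16. For a cell past several limits, Spp1 came before Notch1, and Gfpt2 before Postn before Pi16.

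UMIs were summed over the cells of a class and library and divided by the total. Levels carry exact Poisson, shares Clopper-Pearson and ratios exact conditional binomial intervals (95%), computed with scipy 1.17.1. A gene with at least 20 UMIs over both sums counts as tested. The shares over all genes were not matched to the members or list genes for UMIs. For the ratio of a member between classes, a count of 0 was set to a floor of 3 UMIs. For the shares over all genes it was set below this floor. Named are all members, list genes with at least 100 UMIs in a class, and the 3 genes most like each α chain. In endothelial cells Col4a4, on 44 and 46 UMIs, and Col15a1, on 10 and 73, are named below this limit. The ratio and its interval were run on VSMC counts simulated with Poisson error alone, without spread between cells, rats or libraries. For genes simulated without a difference, 96.0% of intervals held the true value. The interval rests on the same model, so this checks the calculation and says nothing of other spread in the data. Alternatives used Leiden clusters (leidenalg 0.10.2), Scrublet (scanpy 1.11.5) and TMM factors (edgeR 4.0.16). No test between groups was planned or run, since each group is 1 library. Results for 1 listed gene are not reported here.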

Additional observations from a re-analysis of the deposited data

Results flagged for a closer look

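Nid1 was set apart because its difference between the case and control libraries had opposite signs in VSMCs and fibroblasts, each beyond counting error. The log2 difference was -0.40 in VSMCs and 0.23 in fibroblasts, and the difference between the classes was not tested against replicates. With Gfpt2-high and Postn-positive cells left out, an alternative chosen after seeing the data, the fibroblast value was 0.09. That was the lowest of 12 alternatives, and the highest was 0.39.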

How the results depend on the processing

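Of 263 alternative values for 22 log2 differences, 247 lay within the counting interval of the main value, 15 moved outside it and, of the differences beyond counting error, 1 reversed: Lamb2 in fibroblasts stood at 0.01 with each cell thinned to 1000 UMIs. No member passed 1.5-fold in VSMCs, but 1 (Nid1, lower) did when cells were thinned and 1 (Lamb1, lower) with means over cells. In endothelial cells the count of 1 was 0 with Leiden clusters and with Plvap or Emcn cells left out (an alternative chosen after seeing the data), 2 with looser gates, with TMM factors and with mitochondrial and ribosomal genes left out of the total, and 3 with thinning. In fibroblasts it was 2 or 3 under all 12 alternatives. Nid2 in fibroblasts ranged from 0.55 to 2.17, and Lama4 from 0.63 to 1.18. TMM factors, which shift log2 differences by 0.14 in VSMCs and 0.08 in fibroblasts, left 4 of the 6 VSMC members lower beyond counting error (a count added after seeing the data). The cause of these shifts was not tested. Of the levels by class, 80 reached 3 UMIs and 68 reached 10. No paired analysis was possible because each group is 1 library of pooled rats, and for the same reason no replicate could be left out.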
